A study of Mus musculus with 3 samples.

Results

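Gene deserts are long stretches of the genome without a protein-coding gene. Here a desert was any gap of 1000000 bp or more between the merged spans of neighbouring protein-coding genes, taken from the RefSeq gene table of the mouse (build GRCm38.p6, whose coordinates are those of mm10), on chromosomes 1 to 19, from 5 Mb after the chromosome start to 2 Mb before its end. The rule gave 239 deserts among 17684 gaps in that range, and each is named by the genes at its sides. They covered 436 Mb, or 18.7% of the 2328 Mb of the range, and were between 1.01 and 4.54 Mb long, with a median of 1.498 Mb. Chromosome 3 held the most, with 21, and chromosome 19 the fewest, with 5. The choice used gene positions only and no measured value.

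The study followed nucleosomes in mouse fetal liver erythroblasts, the nucleated precursors of red blood cells. Ter119-negative cells, which lack a surface protein of late erythroid cells, came from 6 fetuses. The medium was IMDM, and to it were added erythropoietin at 2 U/ml, insulin, albumin (BSA) at 1% and serum at 10%. Chromatin was taken on culture days 0, 1 and 2 and cut with micrococcal nuclease, an enzyme that digests the DNA between nucleosomes. Each day was 1 library, and the labels give no strain, genotype or age. The lists do not tell the fetuses apart, so no difference between days has a replicate check.

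In textbook terms, deserts are poor in GC and in transcribed DNA, replicate late, and often lie at the nuclear lamina in condensed chromatin. Some hold distant enhancers of the developmental regulators at their sides, and others separate large adhesion and synapse genes that blood cells do not use. Erythroblasts condense their whole nucleus before it is expelled.

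Several deserts held small regulatory RNAs and gene starts that show how unevenly positions were placed. Of 58 microRNA genes annotated in deserts, the RefSeq sequence table gave the hairpins of 52, in 28 deserts. The best covered was the miR-17 to miR-92 cluster on chromosome 14 in Slitrk5-Gpc5, a cluster known for promoting growth of blood cells. Its mature RNAs are shown with the seed, bases 2 to 8, in capitals, grouped so that members of 1 seed follow each other.
miR-17-5p: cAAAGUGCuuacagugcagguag
miR-20a-5p: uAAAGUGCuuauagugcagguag
miR-18a-5p: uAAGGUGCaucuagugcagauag
miR-19a-3p: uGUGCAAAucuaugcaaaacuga
miR-19b-3p: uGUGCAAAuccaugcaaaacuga
miR-92a-3p: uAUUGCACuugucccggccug
MiR-17-5p and miR-20a-5p shared the seed AAAGUGC, miR-19a-3p and miR-19b-3p shared GUGCAAA, and the seed of miR-18a-5p was AAGGUGC. The next pair comes from Nr5a2-Ptprc on chromosome 1 and shared the seed ACAUUCA. It is followed by miR-155-5p of Ncam2-Mrpl39, let-7c-5p and miR-99a-5p of Usp25-Cxadr, all on chromosome 16, and by 2 members of the miR-344 cluster of Gm51483-Ndn on chromosome 7, which share the seed AUAUAAC.
miR-181a-5p: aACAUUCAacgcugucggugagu
miR-181b-5p: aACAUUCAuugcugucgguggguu
miR-155-5p: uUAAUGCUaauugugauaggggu
let-7c-5p: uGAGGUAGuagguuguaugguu
miR-99a-5p: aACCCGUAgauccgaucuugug
miR-344d-3p: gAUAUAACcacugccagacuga
miR-344e-3p: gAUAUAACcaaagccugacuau

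A position in the deposited lists is a called nucleosome, 140 bp wide, with a centre. Of the 6 hairpins of the miR-17 to miR-92 cluster, which together span 0.836 kb, 6, 6 and 5 lay under a position on days 0, 1 and 2. With 5 kb on each side the cluster held 30, 27 and 32 positions on days 0, 1 and 2, or 2.77, 2.49 and 2.95 per kb. Slitrk5-Gpc5 as a whole held 0.246, 0.182 and 0.809 per kb, so the cluster stood above its desert on every day, with 27 to 32 positions throughout. Part of that contrast goes with its place, 47.7 kb from the Gpc5 end. The 100 kb of the desert beside Gpc5, which include the cluster, held 1.09, 1.04 and 1.76 per kb, still below the cluster. Mir181a-1 and Mir181b-1 were each covered on all 3 days, with 11, 4 and 22 positions within 5 kb of the pair. Mir155, whose RNA acts in lymphoid and myeloid cells, was covered on no day and had 6, 9 and 18 positions within 5 kb. The 13 hairpins of the Mir344 cluster, spread over 402 kb, had 0.155, 0.0728 and 0.536 positions per kb with 5 kb on each side. Those values were near those of Gm51483-Ndn as a whole, 0.160, 0.0907 and 0.550 per kb, and 2, 0 and 4 of the 13 were covered. Over all 52 hairpins, 12, 13 and 23 were covered on days 0, 1 and 2, and 8 every time, 5 of them in the miR-17 to miR-92 cluster. By number and width, positions took up 5.15%, 3.38% and 12.2% of desert length on these days. A hairpin is longer than 1 base and meets a position more often than that, so these shares are no direct expectation. The counts are not read as a result about the microRNAs.

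Promoter sequences are shown for 4 genes at desert edges and, for comparison, the window before Mir17hg, picked after their values were seen. Each is the 250 bp before a RefSeq transcript start, with bases under a day 2 position in capitals. Mki67, a marker of dividing cells, lies beside the densest desert of day 0. Id2, an inhibitor of basic helix-loop-helix factors, lies beside the densest desert of day 1. Cdh9, a cadherin, and Rorb, a nuclear receptor, lie beside deserts with the largest ratios of day 2 to day 0, and Mir17hg is a gene of the miR-17 to miR-92 cluster. Its annotated start lies within the cluster, so the window before it holds the Mir20a hairpin and most of Mir19b-1, and it is not shown as a promoter. The windows are chr7:135716380-135716629 on the minus strand for Mki67, chr12:25096093-25096342 minus for Id2, chr15:16728665-16728914 plus for Cdh9, chr19:19111197-19111446 minus for Rorb and chr14:115044140-115044389 plus for Mir17hg.
Mki67: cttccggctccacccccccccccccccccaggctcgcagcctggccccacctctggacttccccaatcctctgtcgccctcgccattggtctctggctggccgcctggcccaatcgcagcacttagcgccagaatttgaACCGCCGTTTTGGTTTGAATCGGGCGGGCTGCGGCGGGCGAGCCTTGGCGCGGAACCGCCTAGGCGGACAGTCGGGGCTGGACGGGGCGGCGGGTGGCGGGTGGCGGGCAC
Id2: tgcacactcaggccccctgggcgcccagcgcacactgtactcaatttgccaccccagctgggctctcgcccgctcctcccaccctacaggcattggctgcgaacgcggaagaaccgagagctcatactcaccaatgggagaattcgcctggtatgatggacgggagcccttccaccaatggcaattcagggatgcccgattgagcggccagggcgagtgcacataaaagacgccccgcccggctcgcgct
Cdh9: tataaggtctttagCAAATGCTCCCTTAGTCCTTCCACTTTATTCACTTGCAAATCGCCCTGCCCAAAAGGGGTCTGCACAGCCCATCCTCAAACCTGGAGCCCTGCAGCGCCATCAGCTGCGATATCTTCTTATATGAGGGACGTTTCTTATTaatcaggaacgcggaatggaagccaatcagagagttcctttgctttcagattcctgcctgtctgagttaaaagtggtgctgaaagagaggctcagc
Rorb: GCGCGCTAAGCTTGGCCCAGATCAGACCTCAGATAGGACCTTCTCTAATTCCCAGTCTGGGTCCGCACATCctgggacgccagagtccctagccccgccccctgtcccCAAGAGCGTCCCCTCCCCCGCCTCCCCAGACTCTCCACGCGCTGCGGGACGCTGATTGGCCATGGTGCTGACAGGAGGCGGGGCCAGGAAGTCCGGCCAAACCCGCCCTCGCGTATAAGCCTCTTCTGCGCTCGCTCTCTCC
Mir17hg: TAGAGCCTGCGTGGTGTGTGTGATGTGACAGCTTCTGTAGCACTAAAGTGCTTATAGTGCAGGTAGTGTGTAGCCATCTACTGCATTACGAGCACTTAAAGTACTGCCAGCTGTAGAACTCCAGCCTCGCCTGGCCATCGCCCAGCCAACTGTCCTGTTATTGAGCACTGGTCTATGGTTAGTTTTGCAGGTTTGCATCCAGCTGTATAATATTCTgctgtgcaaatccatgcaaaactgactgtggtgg
Of the 250 bases, positions covered 101, 136 and 111 at Mki67 on days 0, 1 and 2, in each case at the end nearest the start site. Before Mir17hg, over the hairpins, they covered 230, 179 and 216. At Cdh9 they covered 0, 0 and 140, and at Rorb 0, 0 and 213, so a position was listed there on day 2 only. No base of the Id2 window was covered on any day, although its desert was among the densest. The GC content of these windows ran from 48.0% at Cdh9 to 71.6% at Mki67.

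Deserts held few listed positions for their length, and day 2 held the most. The 3 libraries listed 3735952, 2999502 and 4474045 positions, of which 160537, 105194 and 378601 lay in deserts. These are 0.368, 0.241 and 0.868 positions per kb. Protein-coding gene spans held 2.05, 1.71 and 2.26 per kb, and gaps of 500 kb to 1 Mb, the next class by length, held 0.820, 0.480 and 1.18. Deserts made up 4.50% (95% Clopper-Pearson interval 4.48 to 4.52) of the positions in the range on day 0, 3.68% (3.66 to 3.70) on day 1 and 8.95% (8.92 to 8.98) on day 2. These intervals cover counting error only. Of the net gain of 660455 positions in the range from day 0 to day 2, deserts had 218064, or 33.0%, on 18.7% of the length.

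Depth differed between the libraries. Read totals were not at hand, but summit values, the signal at the centre of a position, lay on steps of 0.762, 0.324 and 0.626 on days 0, 1 and 2. In deserts 99.9%, 99.8% and 99.9% of them were whole multiples within 0.01 of a step. If 1 step is 1 read, day 1 was 2.36 times and day 2 1.22 times as deep as day 0. Day 1 therefore had the fewest positions at the largest depth by that measure. The part of depth and of the list length in the differences between days was not tested, and day cannot be told apart from library.

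To take out list length, counts were divided by the ratio of the list totals. List totals here are the positions within the chromosome range, 3569758, 2860818 and 4230213 on days 0, 1 and 2. The ratio was 0.801 for day 1 over day 0, 1.48 for day 2 over day 1 and 1.19 for day 2 over day 0. The scaled ratio of desert positions was then 0.818 ± 0.20, 2.43 ± 0.39 and 1.99 ± 0.31. Each SD is taken across the 19 autosomes and is no spread between replicates. The ratio of day 2 to day 0 was above 1 on 19 of 19 autosomes and ran from 1.29 on chromosome 7 to 2.56. The ratio of day 1 to day 0 was above 1 on 2 autosomes only, chromosome 15 with 1.33 and chromosome 19 with 1.26. It was not stable: among positions with a summit of 10 or more it was 0.999, and with lists cut to equal size it was 0.970. With each chromosome scaled by its own list total, chromosome 15 stayed above 1, at 1.16, and chromosome 19 came to 0.983.

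**Figure D1:**
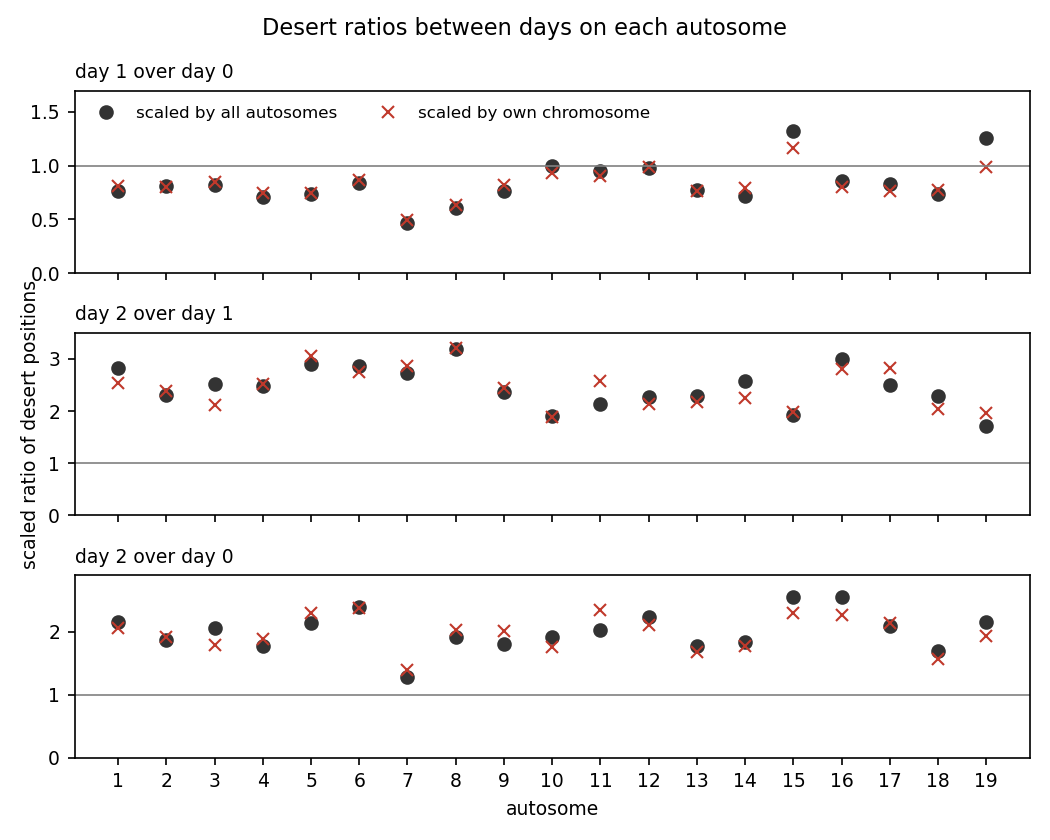
Ratio of desert positions between days on each autosome (x axis), scaled by the list totals of all autosomes (dots) or by those of the same chromosome (crosses). The grey line is a ratio of 1. Every autosome lies above it for day 2 over day 1 and day 2 over day 0, with chromosome 7 lowest for day 2 over day 0 at 1.29.

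The ratio of day 2 to day 0 was smaller in shorter gaps. It was 1.99 in deserts, 1.21 ± 0.28 in gaps of 500 kb to 1 Mb, 1.00 ± 0.10 in gaps of 100 to 500 kb and 0.911 ± 0.056 in gaps under 100 kb. In gene spans it was 0.929 ± 0.065. Within the deserts the 70 of 2 Mb or more had a ratio of 2.61. The gaps on both sides of the minimum length overlapped in density. The shortest desert, Pcdh10-Pabpc4l, held 157, 127 and 635 positions on days 0, 1 and 2, Zfp516-Tshz1 held 1247, 653 and 1482, and Gdf6-2610301B20Rik held 664, 306 and 1019. The longest gaps left out were Rbfox1-Tmem114 with 512, 270 and 945, Gm4340-Tmtc2 with 324, 200 and 887, and Zfp352-Elavl2 with 207, 116 and 722.

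Desert by desert, day 2 was almost uniformly higher. The scaled ratio of day 2 to day 0 was above 1 in 224 of 239 deserts and reached 2-fold in 141, or 59.0%, against a background of 22.1% of all 1 Mb windows of the range. In 0 deserts was it 2-fold lower, where the background was 0.0%. From day 1 to day 2 it reached 2-fold in 197 deserts, or 82.4%, against 31.6% of windows. From day 0 to day 1, 6 deserts were 2-fold higher, 2.51% against 0.82%, and 24 were 2-fold lower, 10.0% against 5.13%. The size rule has no test behind it, and the windows include those inside deserts. Without scaling, the number 2-fold lower on day 1 was 54, or 22.6%, against 12.7% of windows.

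The same held at a finer scale. Of 4111 windows of 100 kb inside deserts, 69.1% were 2-fold higher on day 2 than on day 0 and 0.0243% 2-fold lower, against 26.1% and 0.667% of all such windows. From day 1 to day 2, 85.9% were higher, against 40.6%. From day 0 to day 1, 4.30% were higher and 18.7% lower, against 1.65% and 16.1%, so the share that was lower on day 1 lay near the background.

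The deserts differed widely from each other on days 0 and 1 and less on day 2, though still beyond counting error. Density ran from 0.101 to 1.88 per kb on day 0 (median 0.307), from 0.0869 to 1.39 on day 1 (median 0.190) and from 0.547 to 2.04 on day 2 (median 0.824). The coefficient of variation over the 239 was 71.9%, 74.9% and 30.1%, where counting alone would give 4.11%, 5.10% and 2.71%. Over all 1 Mb windows of the range it was 79.6%, 92.4% and 53.9%. The order of the deserts was partly kept. Spearman's rho over 239 deserts was 0.768 between days 0 and 1, 0.766 between days 0 and 2 and 0.955 between days 1 and 2, a description in which the points share libraries and base composition. Longer deserts were sparser, with a rho between length and density of -0.49, -0.37 and -0.38 on days 0, 1 and 2.

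**Figure D2:**
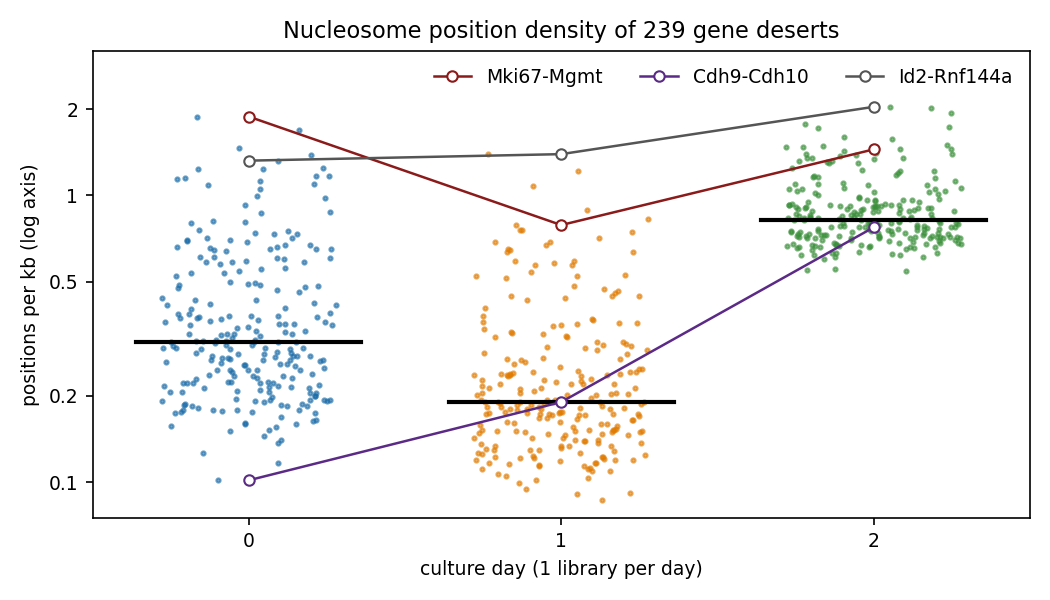
Positions per kb (log axis) of each of the 239 deserts on each culture day, 1 dot per desert, with the median as a black bar. Lines follow 3 named deserts. The dots spread from 0.101 to 1.88 on day 0 and only from 0.547 to 2.04 on day 2.

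The 5 densest deserts on day 0 were Mki67-Mgmt, Plpp3-Usp24, Gm36448-Dad1, Myc-Gsdmc and Id2-Rnf144a, in that order. Mki67-Mgmt on chromosome 7 held 2220, 929 and 1706 positions on days 0, 1 and 2, so it was highest on day 0, and its scaled ratio of day 2 to day 0 was 0.648 (95% counting interval 0.608 to 0.691), the lowest of all. Plpp3-Usp24 on chromosome 4, between a lipid phosphatase and a deubiquitinase gene, held 1828, 631 and 1492, with a ratio of 0.689. The next smallest ratios were those of Rnf144b-Id4, Fgf9-1700129C05Rik and Gfra2-Gm9195, which ranked 15, 14 and 13 in density on day 0. They held 1099, 336 and 1039, then 1123, 350 and 1119, and then 1634, 586 and 1679 positions on days 0, 1 and 2. The first 2 of these, with Mki67-Mgmt and Plpp3-Usp24, were the only 4 of the 239 deserts with most positions on day 0. Id4 is a relative of Id2, Fgf9 a growth factor and Gfra2 a receptor subunit for neurturin. The 5 deserts of smallest ratio were lowest on day 1 and had scaled ratios of day 2 to day 0 between 0.648 and 0.867. High day 0 density and a small ratio share the same day 0 count, so neither supports the other. The smallest ratio of day 1 to day 0 belonged to Sall1-Tox3, with 1199, 304 and 1274 positions and a scaled value of 0.316. It is named after its value was seen.

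The scaled ratio of day 1 to day 0 was above 1 in 52 of the 239 deserts, some of them dense. Other dense deserts lay below 1. Gm36448-Dad1 had 0.759, and Klf4-Actl7b and Plekhb2-Hs6st1, which ranked 6 and 7 on day 0, had 0.833 and 0.676. Myc-Gsdmc on chromosome 15 begins at Myc, the growth regulator, and held 2466, 2166 and 3616 positions, with a ratio of 1.10. Inside it, the long non-coding RNA gene Pvt1 held 620, 732 and 802 positions, or 2.79, 3.29 and 3.61 per kb, above the 2.05, 1.71 and 2.26 per kb of protein-coding spans. Id2-Rnf144a on chromosome 12 held 1602, 1688 and 2468, with a ratio of 1.31, and its ratio of day 2 to day 1 was 0.989, the only one of the 239 that was not above 1. Beside the erythroid and progenitor genes of the list, Bcl11a-Fancl held 1550, 1410 and 2876 positions and Cetn3-Mef2c 1097, 1008 and 2304. Bcl11a represses embryonic globin genes and Mef2c is a factor of muscle, lymphoid and megakaryocyte cells. Their scaled ratios were 1.14 and 1.15 for day 1 over day 0 and 1.57 and 1.77 for day 2 over day 0.

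The 5 sparsest deserts on day 0 included 3 on chromosome 15 that separate the cadherin genes Cdh6, Cdh9, Cdh10 and Cdh12. Cdh6-Cdh9 held 413, 686 and 2674 positions on days 0, 1 and 2, Cdh9-Cdh10 held 199, 373 and 1518, and Cdh10-Cdh12 held 196, 430 and 1377. Each was higher at every step, and their scaled ratios of day 2 to day 0 were 5.46, 6.44 and 5.93. The next largest ratio was that of Rorb-Anxa1 on chromosome 19, between the genes of a nuclear receptor and annexin A1, with 191, 454 and 1233 positions and a ratio of 5.45 (4.67 to 6.38). Kcnv1-Csmd3 on chromosome 15 held 393, 431 and 1929, with a ratio of 4.14. Low day 0 counts and high ratios share the same day 0 value, so neither supports the other. Of the other two among the 5 sparsest, 4931408C20Rik-Gm597 on chromosome 1 held 263, 191 and 1157 and Pcdh9-Spertl on chromosome 14 held 278, 235 and 1359, and only the second was above 1 from day 0 to day 1 after scaling, at 1.05.

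The 5 longest deserts followed the common course. Pcdh20-Pcdh9 (4.54 Mb), between protocadherin genes, held 726, 518 and 3102 positions. Celf4-Pik3c3 held 973, 595 and 3263, Olfm4-Pcdh17 849, 574 and 3095, Cntnap5b-Cdh20 645, 442 and 2891 and Tenm3-Aga 707, 466 and 2534. All 5 were lowest on day 1 and highest on day 2 in unscaled counts, with scaled ratios of day 2 to day 0 between 2.83 and 3.78. In unscaled counts 217 of the 239 deserts, or 90.8%, had that order. The list totals have the same order, and the share of all windows with it was not counted. The course is therefore not read as particular to deserts.

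Deserts were also grouped by the genes at their sides, through symbols that start with a family name from chosen lists. The 69 deserts beside genes of adhesion and synapse families had median densities of 0.231, 0.160 and 0.753 per kb and a median scaled ratio of day 2 to day 0 of 2.77, and 59 of them reached 2-fold. The 14 beside genes of the listed developmental transcription factor families had 0.616, 0.245 and 0.894 per kb and a median ratio of 1.46, with 3 at 2-fold. For the 156 beside neither the values were 0.355, 0.215 and 0.874 per kb and 2.01, with 79 at 2-fold. The lists are not complete. The 156 include deserts beside other transcription factor genes, such as Sall1-Tox3 and Klf4-Actl7b, so they are no set without such genes. The groups differ in length and the ranges overlap: 0.101 to 0.925 per kb on day 0 beside adhesion genes and 0.165 to 1.24 beside factor genes.

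Positions in deserts were sparser the farther they lay from the genes. Within 10 kb of an end the density was 0.857, 0.674 and 1.37 per kb on days 0, 1 and 2. It was lower in each farther class, down to 0.241, 0.167 and 0.754 beyond 500 kb, which is 28.1%, 24.8% and 54.95% of the outermost class. The gradient was thus shallower on day 2. Outside the deserts, within 100 kb of the same ends, density was 0.904 to 0.982, 0.737 to 0.932 and 1.43 to 1.58 per kb. This was above the level just inside on every day. The 10 kb next to the end held 0.982, 0.932 and 1.58 per kb outside and 0.857, 0.674 and 1.37 inside. The scaled ratio of day 2 to day 0 grew from 1.35 within 10 kb to 2.65 beyond 500 kb. Up to 500 kb every desert counts with the same length. From 200 to 500 kb the density was 0.389, 0.235 and 0.878 per kb and the ratio 1.91. Beyond 500 kb longer deserts count for more, and these were sparser and had higher ratios. That class thus mixes distance with desert length.

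**Figure D3:**
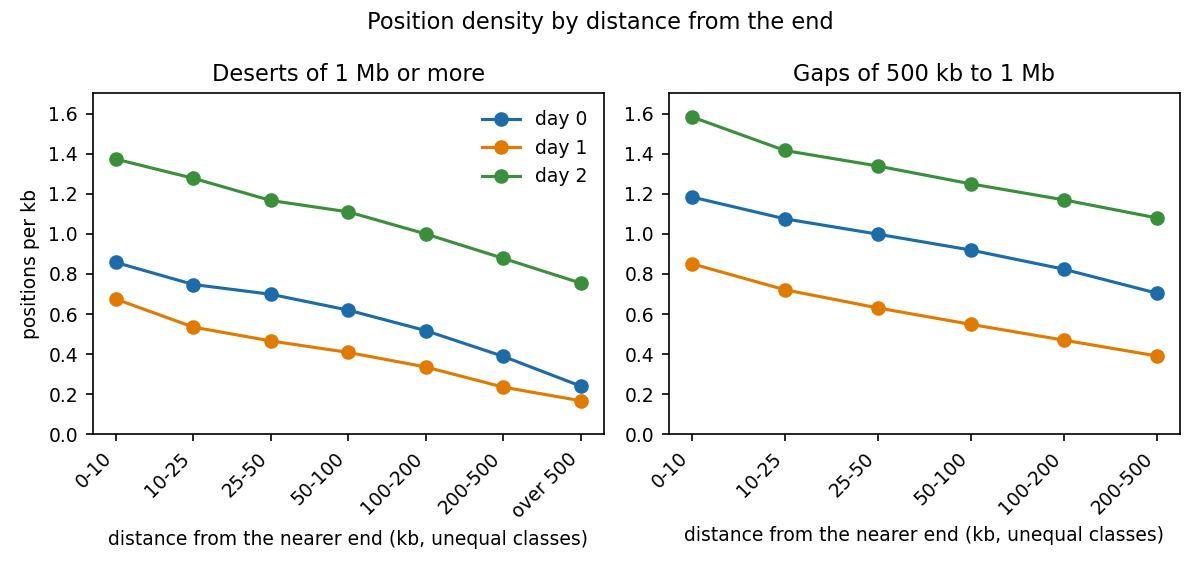
Positions per kb by distance from the nearer protein-coding gene (classes of unequal width), in the 239 deserts (left) and in the 330 gaps of 500 kb to 1 Mb (right), for 3 culture days. In deserts the level goes from 0.857 to 0.241 per kb on day 0 and from 1.37 to 0.754 on day 2.

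The outer 100 kb on each side held 2.07 ± 0.18, 2.20 ± 0.22 and 1.42 ± 0.078 times the density of the middle on days 0, 1 and 2 (SD over 19 autosomes). Edges were denser than the middle in 227, 206 and 218 of the 239 deserts. In gaps of 500 kb to 1 Mb the same ratio was 1.31 ± 0.076, 1.48 ± 0.19 and 1.19 ± 0.064. In the 12 stretches of 1 Mb or more inside deserts that hold no annotated gene of any kind it was 1.15, 1.11 and 1.07. Steep edges could be 1-sided. In Ctnna3-Reep3 on chromosome 10 the 100 kb beside Reep3 held 2.66, 3.48 and 3.95 per kb and the 100 kb beside Ctnna3, the gene of a catenin of the heart and testis, 0.150, 0.0900 and 0.680. Tmpo-Nedd1 held 2.35, 2.89 and 3.45 per kb beside Tmpo, a gene of a nuclear lamina-binding protein, and 0.890, 0.320 and 1.09 beside Nedd1. At the other end, 4931408C20Rik-Gm597, Jag1-Btbd3 and Gm51483-Ndn had denser middles than edges on day 2, with ratios of 0.845, 0.853 and 0.862, though all 3 were above 1 on day 0.

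A few places inside deserts were as dense as genes on every day. Of 21689 windows of 20 kb, the median held 5, 3 and 16 positions. The 50 windows with most positions on their lowest day held at least 46 on each day and lay in 15 deserts. Myc-Gsdmc had 13 of the windows and Id2-Rnf144a 11. Other windows tied at 46 fell outside the 50, some of them in Id2-Rnf144a, so the order of these deserts is not read. Of these 50, 33 lay within 100 kb of a desert end, where 11.02% of all windows lie. The first was the outermost window of Tmpo-Nedd1 beside Tmpo, with 72, 81 and 87 positions. The outermost window of Mki67-Mgmt beside Mki67 held 68, 69 and 70. The count there hardly differed between days, while the whole of Mki67-Mgmt went from 2220 to 929 to 1706. These windows were picked by their values, so they are a description. At the other extreme, 14.6%, 26.6% and 0.253% of 43497 windows of 10 kb held no centre on days 0, 1 and 2. The longest stretch without a centre was 115, 121 and 50.8 kb, and 2 stretches of 50 kb or more, of 50.8 and 50.3 kb, were empty on all days.

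Non-coding genes inside deserts were denser than desert DNA without any annotated gene, pooled over all deserts. The 1015 long non-coding RNA genes held 0.530, 0.362 and 1.01 positions per kb, and the parts of deserts without any annotated gene 0.352, 0.227 and 0.851. Deserts with over 5 such genes, 60 in all, had a median day 0 density of 0.606 per kb, against 0.245 in the 17 deserts with none. Their median scaled ratios of day 2 to day 0 were 1.55 and 2.76. The DNA next to each gene was not measured. Whether the higher density goes with the genes or with the deserts and places that hold them was not tested.

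A set of 3 deserts held antigen receptor gene segments, among them Adam6a-Zfp386 with the immunoglobulin heavy chain locus on chromosome 12 and Gm36448-Dad1 with the T cell receptor alpha and delta locus on chromosome 14. Adam6a-Zfp386 held 819, 1780 and 3483 positions on days 0, 1 and 2, and Gm36448-Dad1 held 2473, 1505 and 2711. Adam6a-Zfp386 had a scaled ratio of day 1 to day 0 of 2.71, where Gm36448-Dad1 had 0.759. Without the 3 deserts the ratios over all deserts were 0.808, 2.47 and 2.00, and the edge to middle ratios 2.08, 2.22 and 1.42.

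Promoter windows inside deserts carried a position less often than others. The RefSeq table gave 925 windows of 300 bp, from 250 before to 50 after a start, wholly inside deserts, of 780 genes, none of which codes for protein. A position centre lay in 21.1%, 13.9% and 37.5% of them on days 0, 1 and 2, against 56.8%, 54.3% and 64.7% of the 29164 others. Desert windows were poorer in GC, with a median of 43.7% against 53.3%, and held a median of 2 copies of the letters CG against 8. At matched GC the desert share was lower in each class up to 55% GC on every day. In windows of 45 to 50% GC the shares were 29.3%, 16.2% and 46.3% in deserts and 56.3%, 45.7% and 60.5% elsewhere. Elsewhere, windows of genes that code for no protein had 61.5%, 49.3% and 61.8% in that class, and 61.0%, 53.1% and 64.1% over all GC classes. In desert windows of 60% or more, 10 in all, 3, 8 and 5 held a centre, so 80.0% on day 1, against 64.1%, 72.3% and 76.8% elsewhere. At 55 to 60% GC the 18 desert windows had 33.3%, 38.9% and 83.3%, against 65.7%, 63.95% and 71.5%, so the order turned in 1 day of each of these thinly filled classes.

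**Figure D4:**
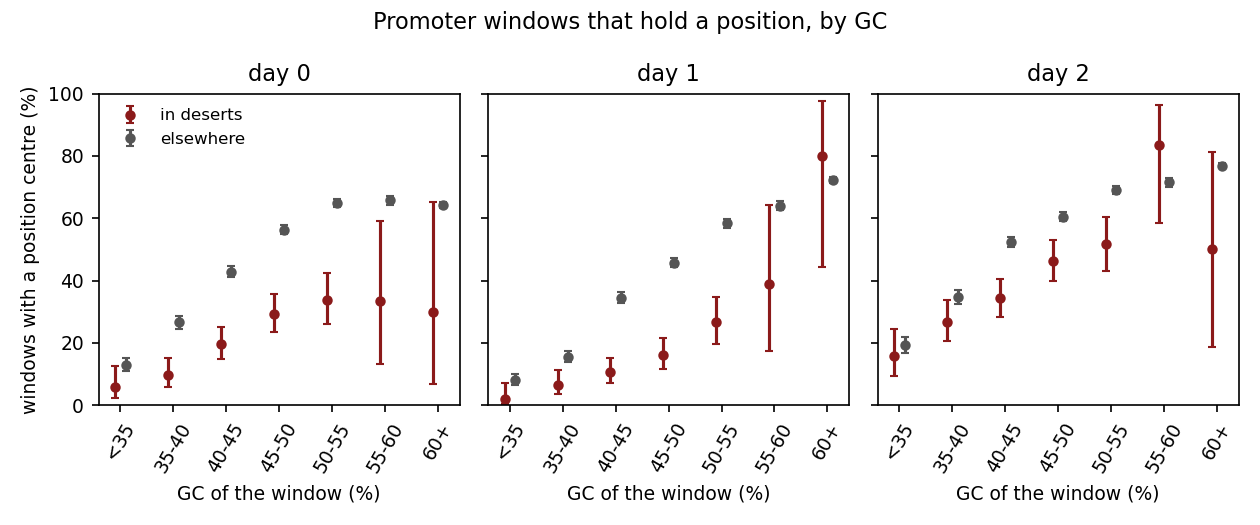
Percent of 300 bp promoter windows with a position centre, by GC class, on each day, for 925 windows in deserts and 29164 elsewhere. Bars are 95% Clopper-Pearson intervals, which cover counting error only. Desert windows lie lower in the classes from 40 to 55% GC on all 3 days, and the 10 windows of 60% or more have wide bars.

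Neighbouring positions in deserts were far apart. The median distance from a centre to the next was 1003, 1322 and 575 bp on days 0, 1 and 2, against 240, 220 and 245 bp in gene spans. Maxima among all pairs of centres were sought between 150 and 1200 bp. The first lay at 241 bp on days 0 and 2 and at 159 bp on day 1, with 2.62, 2.22 and 2.68 times the level at 1000 to 1400 bp. Over single autosomes it ran from 234 to 264 bp on day 0, 151 to 669 bp on day 1 and 236 to 251 bp on day 2. On day 1 smaller maxima followed at 551, 731, 951 and 1159 bp. In gene spans of the same day the maxima found lay at 379, 549, 751, 949 and 1129 bp, an average step of 190 bp. From about 550 bp on the maxima of both kinds of region thus lay near each other. The gene span curve of day 1 was highest near 140 bp, at 1.58, just below the range searched. A short-distance maximum on day 1 was therefore not particular to deserts. The same holds for days 0 and 2, where gene spans and gaps of 500 kb to 1 Mb also had a maximum between 240 and 250 bp. In those gaps it reached 1.85 and 1.83 times the far level on days 0 and 2, below the deserts. On day 0 the next desert maxima were at 626, 726, 879 and 1006 bp and on day 2 at 781, 1019 and 1111 bp, both uneven. The slopes through all desert maxima were 161, 240 and 285 bp for days 0, 1 and 2. They include the first maximum, and on day 1 none was found between 159 and 551 bp, so none of the 3 is given as a nucleosome repeat. Runs of 4 or more positions at steps of 150 to 250 bp held 1.82%, 2.96% and 2.77% of desert positions and 14.6%, 15.6% and 13.9% of those in gene spans. There were 671, 712 and 2407 such runs in deserts. That share moves with density, and the part of density in it was not tested.

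**Figure D5:**
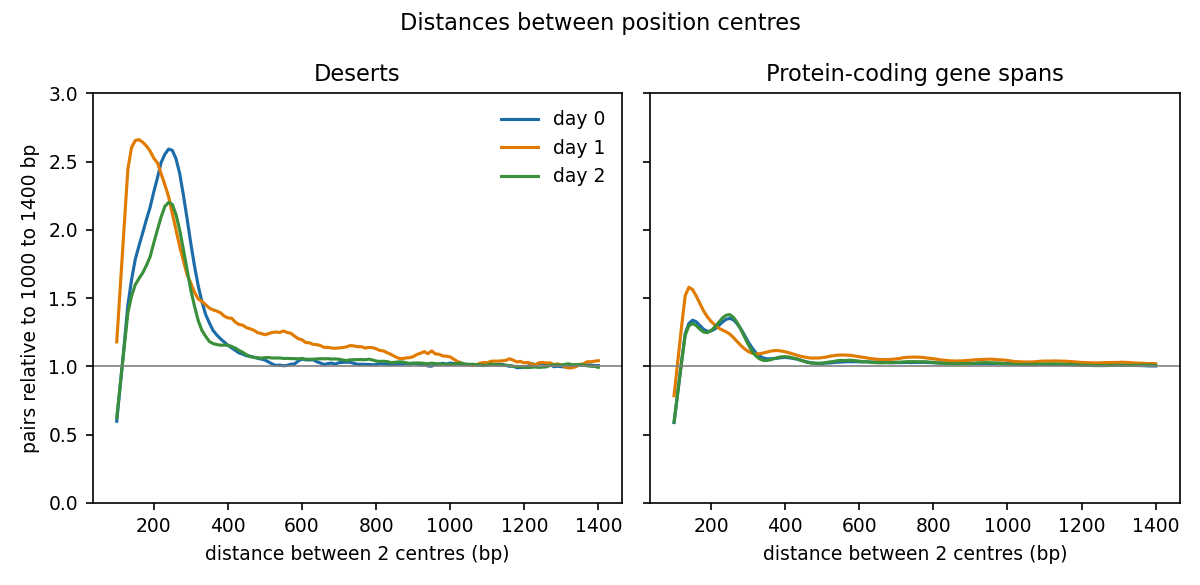
Number of pairs of position centres by distance (bp), relative to the level at 1000 to 1400 bp, in deserts (left) and protein-coding gene spans (right) for 3 culture days. Among maxima sought from 150 bp on, the first in deserts is at 241 bp on days 0 and 2 and at 159 bp on day 1. On day 1 smaller ones follow at 551, 731, 951 and 1159 bp.

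Few desert positions were found at the same place on different days. Of day 0 positions, 3.82% had a day 1 centre within 20 bp and 8.09% a day 2 centre, against 2.23% and 5.17% after a shift of 1000 bp. Of day 1 positions, 11.1% had a day 2 centre, against 6.10%. The ratios to the shifted shares were 1.71, 1.56 and 1.81, above the 1.29, 1.28 and 1.32 of gene spans, where shares themselves were higher, at 15.2%, 17.0% and 19.3%. In all, 1065 desert positions of day 0, or 0.663%, had a centre nearby on both other days. In gene spans the share was 3.52%. Per Mb the values were 2.44 in deserts and 72.1 in gene spans. Both measures move with the density of the lists, which was higher in gene spans. No shifted share was made for all 3 days, so these values do not tell whether deserts keep fewer positions.

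The listed positions of deserts were weak but narrow. The median summit value was 6.10, 5.83 and 5.004 on days 0, 1 and 2, which is 8, 18 and 8 steps, against 7.62, 6.80 and 6.26 in gene spans. A summit of 10 or more was reached by 2.22%, 2.39% and 1.86% of desert positions and 17.3%, 15.4% and 10.9% of those in gene spans. The fuzziness score, which is larger where the reads of a position are more spread, had a median of 47.1, 51.6 and 48.4 in deserts and 51.5, 54.8 and 51.6 in gene spans. At summits from 6 to 7 it was 46.1, 51.7 and 48.1 in deserts and 51.1, 54.7 and 51.5 in gene spans, so the difference was of similar size at matched summit.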

How the data were processed

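Positions came from 3 deposited lists, 1 per culture day. Per the submitters' processing notes Bowtie2, bedtools and build mm10 were used, and for the position caller and its settings: not given in the sources used here. Each row holds the start, end and centre of a position, its summit signal in the unit the authors scaled and smoothed (per the file names), the authors' p-value for the summit, and a deposited fuzziness score with its own p-value. No p-value was used as a filter.

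Centres were counted in gaps between merged protein-coding spans of the RefSeq table (GRCm38.p6) with Python 3.11.15, numpy 2.4.6, pandas 2.3.3 and scipy 1.17.1. Counts between days were divided by the ratio of list totals within the chromosome range, with exact conditional binomial intervals (95%, counting error only). With 1 library per day no test was made, and 2-fold is a rule of size. Named were the 5 longest, the 5 densest and 5 sparsest on day 0, the 5 largest and 5 smallest ratios of day 2 to day 0 among deserts with at least 20 positions, the 3 largest and 3 smallest edge ratios of day 2, and the 3 at each side of the length limit. One desert that this rule names is not reported here. The members, gene lists and rules were chosen with earlier results of these data known. Distances were smoothed by a running mean that reached 31 bp to each side. The counting scripts were tested on simulated data. Alternatives were a summit of 10 or more, lists cut to the 2999502 highest summits, summed summit values, no scaling, other edge widths, other distances for shared positions, deserts of 2 Mb or more, gaps without any annotated gene, and leaving out each chromosome. Leaving out the 3 receptor loci was added after seeing the data.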

Additional observations from a re-analysis of the deposited data

How the results depend on the processing

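The higher desert share of day 2 held in direction under every alternative tried, and the size of the ratio moved. In the order day 1 over day 0, day 2 over day 1 and day 2 over day 0, the desert ratio was 0.999, 2.78 and 2.78 at a summit of 10 or more, 0.970, 1.87 and 1.82 with lists of equal size, 0.933, 2.79 and 2.61 in deserts of 2 Mb or more, 0.859, 3.33 and 2.86 in the 12 gaps without any annotated gene and 0.655, 3.60 and 2.36 without scaling. With summed summit values it was 2.55 and 2.08 for the last 2. Leaving out each chromosome gave 0.797 to 0.832, 2.40 to 2.48 and 1.97 to 2.01. Without the receptor loci the first 2 were 0.808 and 2.47. The lower level of day 1 against day 0 thus came close to 1 at high summits and with equal lists, and the cause was not tested. The 24 deserts 2-fold lower on day 1 became 54 without scaling, 14 with equal lists and 4 of 21 with enough positions at a summit of 10 or more. At that summit 14 of 28 were 2-fold higher for day 2 over day 1, and for day 2 over day 0 19 of 38 were higher and 2 lower, since few deserts had 20 such positions.

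Edge to middle ratios on days 0, 1 and 2 were 2.15, 2.35 and 1.47 for edges of 50 kb, 1.98, 2.05 and 1.35 for 200 kb, 4.57, 4.27 and 2.73 at a summit of 10 or more and 1.15, 1.11 and 1.07 without any annotated gene. Equal lists gave 2.20 and 1.56 on days 0 and 2. The coefficient of variation between deserts was 181, 188 and 106% at a summit of 10 or more and 78.3 and 40.3% with equal lists on days 0 and 2, so day 2 stayed the most even. The slope through the distance maxima was 297, 175 and 185 bp at a summit of 10 or more, 199 and 247 bp on days 0 and 2 with equal lists and 212 bp on day 2 with less smoothing. These values were not read as a repeat length. Shared positions, day 0 with 1, day 1 with 2 and day 0 with 2, were 2.15, 6.44 and 4.55% within 10 bp, 6.88, 19.6 and 14.7% within 40 bp and 4.18, 7.41 and 5.40% with equal lists.

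No paired analysis was possible because each day is 1 library. Depth limits what a missing position means: a weak nucleosome can fall below the caller's limit, and read totals are unknown.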
